A study of Mus musculus with 29 samples.

Results

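Microglia are the resident macrophages of the brain, and their identity is set by a small number of transcription factors. The 9 genes described here encode such factors and were chosen by name, for their known part in microglial or macrophage fate, out of 36172 genes in the count table. They are Sfpi1 (the file's symbol for Spi1, which encodes PU.1), Irf8, Runx1, Mef2c, Sall1, Cebpa, Ikzf1, Irf5 and Tal1. Their levels were measured by TRAP-RNAseq, in which ribosomes carrying an EGFP-tagged L10a protein are pulled down with an antibody to GFP and the RNA that comes with them is sequenced. All 29 libraries came from brain tissue of mice, males and females, about 3 months old, that carried 1 copy of the NuTRAP cassette and 1 copy of a tamoxifen (Tam)-inducible Cre (Cre/ERT2), and that had been given Tam once a day for 5 days.

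In Cx3cr1-NuTRAP mice (Cx3cr1-Cre/ERT2+; NuTRAP+) the Cre was driven by Cx3cr1, which is active in microglia and also in other macrophages and monocytes, and brains were taken 3 to 4 weeks after Tam. In Aldh1l1-NuTRAP mice (Aldh1l1-Cre/ERT2+; NuTRAP+) it was driven by the astrocyte gene Aldh1l1. The interval from Tam to collection is not given for the TRAP libraries of these mice in the sources used here, so it may differ between the lines. From 6 Cx3cr1-NuTRAP mice (numbers 155, 192, 194, 209, 210 and 277) there were 3 kinds of library: the positive fraction (RNA on the beads), the negative fraction (RNA left unbound) and the input (cleared homogenate before the pulldown). For 5 of those mice, all but 155, there was also RNA isolated conventionally from whole tissue. From 3 Aldh1l1-NuTRAP mice (290, 293 and 294) there were positive and negative fractions only. Among the libraries analysed here none came from a mouse without Cre, without Tam or without the cassette, so binding to the beads by untagged RNA was not measured directly. The study describes a small population of tagged cells in the Cx3cr1 line without Tam.

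As background, PU.1 is an ETS-family factor that opens myeloid enhancers and is required for microglia to form at all. IRF8 binds composite ETS/IRF sites together with PU.1, and RUNX1 acts upstream of PU.1 in early hematopoietic precursors. C/EBP alpha and Ikaros (from Ikzf1) shape the myeloid and lymphoid branches, TAL1 starts the blood and endothelial program, and IRF5 drives inflammatory gene expression in mature macrophages. SALL1 is the factor that, among macrophages, is characteristic of microglia, and MEF2C restrains microglial activation. Neither of the last pair belongs to microglia alone, since MEF2C is a prominent neuronal factor and SALL1 is also made by neural progenitors and astrocytes.

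Library totals ranged from 15486605 to 19831228 counts in the Cx3cr1-NuTRAP positive fraction, from 18297512 to 24999098 in its negative fraction and from 18095651 to 26857866 in its input. The shallowest libraries were the whole tissue of mouse 210, with 4260949 counts, and the Aldh1l1-NuTRAP negative fraction of mouse 290, with 8782235. The labelled cell types were checked against marker lists. The summed level of 15 microglia markers ran from 3882 to 9513 CPM (counts per 1000000 counts of the library) in the Cx3cr1-NuTRAP positive fraction, from 465 to 515 in its input and from 78.6 to 163 in the Aldh1l1-NuTRAP positive fraction. Against input, 15 of 15 microglia markers rose in the Cx3cr1-NuTRAP pulldown. In that of the Aldh1l1-NuTRAP mice 8 of 8 astrocyte markers rose and 15 of 15 microglia markers fell against the unbound RNA, where 11 of the 15 passed the count filter in the pulldown itself. The Cx3cr1-NuTRAP positive fraction still held other cell types: neuron markers summed to 5455 to 8415 CPM there against 7543 to 7897 in input, and astrocyte markers to 2712 to 4270 against 4364 to 4739. Markers of border-associated macrophages summed to 157 to 491 CPM there against 26.3 to 47.9 in input, and 8 of 8 were called higher, of which 4 passed the count filter in input too. Monocyte and neutrophil markers summed to at most 4.94 CPM and lymphocyte markers to at most 5.70 in that fraction.

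Because these factors are known to act on one another's genes, promoters of the members (250 bases before to 50 after each RefSeq start, GRCm38.p6) were searched on both strands for GAGGAAG (PU.1), TGTGGT (RUNX), GAAANNGAA (IRF), TTGCNNAA (C/EBP), CTAAAAATA (MEF2) and CAGATG (TAL1 E-box). The table held 16 windows for 8 of the members, and none for Sfpi1. A match was found in 4 of the 16 windows, with no matches overlapping. The share of all 32851 windows holding a match was 13.6% for the PU.1 letters, 16.8% for RUNX, 8.56% for IRF, 10.8% for C/EBP, 0.517% for MEF2 and 17.2% for the E-box, so single matches are frequent in promoters in general. Of the 16 member windows 1 each held the PU.1, RUNX and C/EBP letters, 2 the E-box and 0 those of IRF or MEF2. No motif was more frequent in the member windows than in all windows. The sequences below hold all of these matches and are shown because each has the letters of another member, or of the gene's own family, beside a start of the member. Capitals mark the match, which in Runx1 and in both Tal1 stretches is read on the opposite strand. The Runx1 stretch holds 2 RUNX matches, the first with its first base at 29 from the start, the first Mef2c stretch a PU.1 match at -186, the second a TAL1 E-box at -245, the first Tal1 stretch a C/EBP match at -199 and the other Tal1 stretch a TAL1 E-box at 11.
Runx1, chr16:92826029-92826058, minus strand: acctcataaacaACCACAgaACCACAagtt
Mef2c, chr13:83523406-83523655, plus strand: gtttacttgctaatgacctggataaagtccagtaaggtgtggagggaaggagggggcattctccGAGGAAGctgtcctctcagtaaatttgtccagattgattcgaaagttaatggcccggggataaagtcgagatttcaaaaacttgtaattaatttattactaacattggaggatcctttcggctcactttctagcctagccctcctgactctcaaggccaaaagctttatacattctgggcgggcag
Mef2c, chr13:83573357-83573606, plus strand: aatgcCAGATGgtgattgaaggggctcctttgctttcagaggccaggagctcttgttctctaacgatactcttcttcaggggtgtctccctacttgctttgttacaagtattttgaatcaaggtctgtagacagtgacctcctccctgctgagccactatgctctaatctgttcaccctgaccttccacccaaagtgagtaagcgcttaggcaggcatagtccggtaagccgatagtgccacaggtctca
Tal1 upstream, chr4:115056176-115056425, plus strand: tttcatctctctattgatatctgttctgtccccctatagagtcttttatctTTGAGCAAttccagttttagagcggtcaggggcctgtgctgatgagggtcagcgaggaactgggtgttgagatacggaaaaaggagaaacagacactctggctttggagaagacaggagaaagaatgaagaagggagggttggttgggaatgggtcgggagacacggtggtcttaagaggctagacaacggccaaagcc
Tal1 at the start, chr4:115056416-115056445, plus strand: ggccaaagccgctgaacgagCATCTGggag
Both Mef2c windows belong to starts inside the span the count table gives for the gene, and the Tal1 window lies before the table's first base of Tal1, so none was measured separately. A match is a description of these letters and not a binding site.

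In the Cx3cr1-NuTRAP positive fraction 8 of the 9 factors rose against input and 0 fell, by edgeR's quasi-likelihood test with Benjamini-Hochberg adjustment over 13838 genes at an adjusted p below 0.05. Over all genes tested, 23.3% were called higher and 25.6% lower. No member was lower at an unadjusted p below 0.05 or by DESeq2 either. All 9 passed the count filter in input as well as in the positive fraction. The median log2 change of the members was 2.54, and that of all genes tested was -0.003. Against the negative fraction 8 rose and 0 fell, where 12.8% of all genes were higher, and Runx1 passed the filter only through the positive fraction. The comparisons below share libraries with one another, so they are not independent. In bulk RNA, fewer cells of a type and less RNA per cell cannot be told apart.

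**Figure D1:**
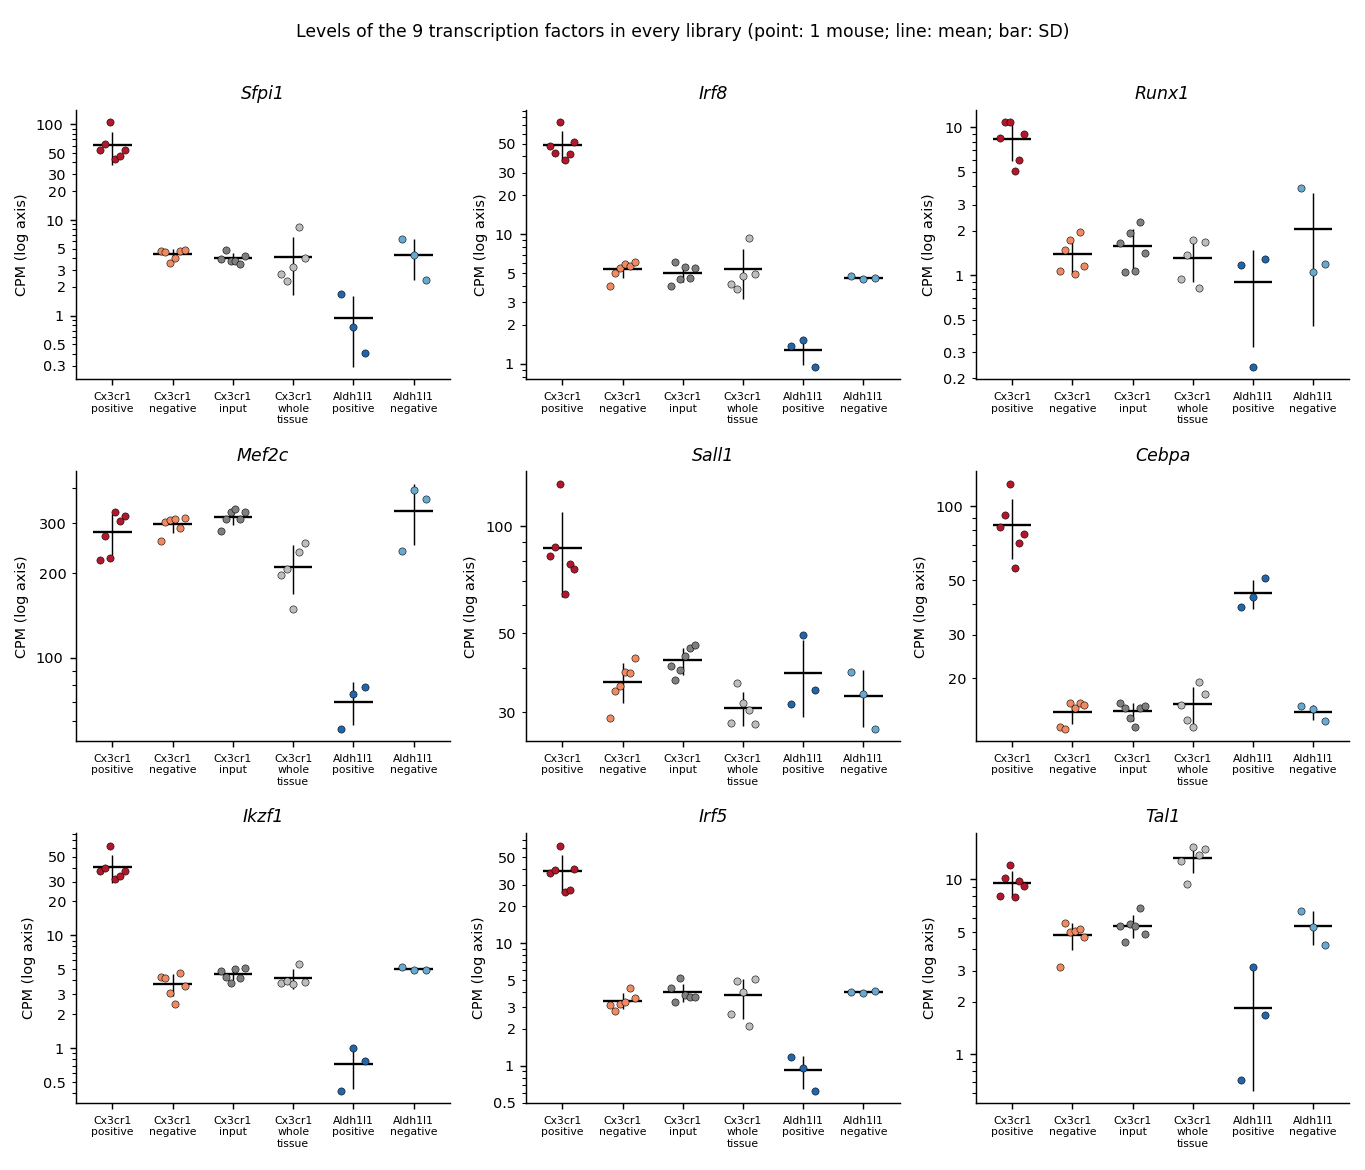
Level of each of the 9 factors in every library, as CPM on a log axis, by group, with points for mice and bars for the mean and SD of 6, 6, 6, 5, 3 and 3 libraries. The 6 Cx3cr1-NuTRAP positive libraries lie above all others for Sfpi1, Irf8, Runx1, Sall1, Cebpa, Ikzf1 and Irf5, while for Mef2c they overlap the negative, input and whole-tissue libraries.

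Sfpi1 (Entrez gene 20375, chr2:91096797-91115756 of mm10, plus strand), the gene of PU.1, showed the largest ratio of the 9. Its level in the positive fraction was 43.3 CPM at the lowest (mouse 209), 53.9 at the median and 106 at the highest (mouse 194). Input held 3.45, 3.84 and 4.92 CPM on the same 3 measures, and the negative fraction ranged from 3.59 to 4.86. No positive library overlapped any other. The change against input was 15.5-fold (log2 3.95, SE 0.22, adjusted p = 2.73e-08), and against the negative fraction 14.1-fold (log2 3.82, adjusted p = 1.81e-08). In whole tissue the values were 2.32, 2.71, 3.26, 4.00 and 8.45 CPM, the last from mouse 210, whose library was the shallowest and had the highest summed microglia markers of that group, 664 CPM. Whether either bears on the Sfpi1 value was not tested. The Aldh1l1-NuTRAP positive libraries held 1.68, 0.762 and 0.403 CPM and the negative ones 6.32, 4.30 and 2.38 (mice 290, 293 and 294). All 3 positive values were below the lowest negative value.

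Irf8 (Entrez 15900, chr8:120736376-120756692, plus strand), the partner of PU.1, had 37.5, 45.6 and 74.0 CPM as lowest, median and highest in the positive fraction and 4.00, 5.05 and 6.08 in input. The groups were clearly apart, with a 9.85-fold difference (log2 3.30, SE 0.18, adjusted p = 1.45e-08). Irf5 (Entrez 27056, chr6:29526625-29537320, plus strand), the inflammatory member of the same family, had 26.0, 38.5 and 62.5 CPM against 3.34, 3.73 and 5.23 in input. Its difference was 9.89-fold (log2 3.31, SE 0.22, adjusted p = 5.84e-08). Ikzf1 (Entrez 22778, chr11:11686213-11772926, plus strand), the gene of Ikaros, had 31.9, 37.3 and 62.6 CPM against 3.81, 4.57 and 5.13. It was 8.97-fold higher (log2 3.17, SE 0.17, adjusted p = 1.45e-08). These 3 factors and Sfpi1 shared 1 pattern over the 6 groups: the Cx3cr1-NuTRAP positive fraction was highest without overlap, the Aldh1l1-NuTRAP positive fraction was lowest without overlap, and the 4 groups between overlapped their neighbours.

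Runx1 (Entrez 12394, chr16:92601466-92826066, minus strand), the factor that precedes PU.1 in development, was the lowest of the 9 per kilobase of exon in both input and the positive fraction. It had 5.03, 8.76 and 10.9 CPM in the positive fraction and 1.04, 1.53 and 2.31 in input. The groups did not overlap, and the difference was 5.39-fold (log2 2.43, SE 0.25, adjusted p = 3.42e-06). Outside the positive fraction its counts were small, down to 3.5 counts in the whole tissue of mouse 210 and 5 counts in the Aldh1l1-NuTRAP positive library of mouse 293. Its ranges in those groups overlapped, and no order among them was seen.

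Cebpa (Entrez 12606, chr7:35119293-35121931, plus strand), the gene of C/EBP alpha, had 56.3, 79.9 and 124 CPM in the positive fraction against 12.6, 15.1 and 15.9 in input. That was a 5.80-fold difference (log2 2.54, SE 0.16, adjusted p = 4.36e-08). Whole tissue held 12.6 to 19.4 CPM and the negative fraction 12.4 to 15.9. Sall1 (Entrez 58198, chr8:89027243-89044162, minus strand) had 64.6, 80.4 and 131 CPM in the positive fraction and 36.9, 41.7 and 46.3 in input. Its ranges did not overlap either, but the difference was smaller, 2.09-fold (log2 1.07, SE 0.15, adjusted p = 5.17e-05). Tal1 (Entrez 21349, chr4:115059527-115071755, plus strand) had 7.92, 9.45 and 12.1 CPM against 4.40, 5.43 and 6.84 in input. It was 1.77-fold higher (log2 0.82, SE 0.14, adjusted p = 0.000274), again without overlap. Of 8 endothelial markers 3 were higher and 0 lower in this comparison, with sums of 98.9 to 210.3 CPM against 108 to 128 in input, and their part in the Tal1 rise was not tested.

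Mef2c (Entrez 17260, chr13:83504034-83667079, plus strand) was the exception, with 222, 288 and 328 CPM in the positive fraction, 283, 319 and 338 in input and 260 to 314 in the negative fraction. The groups overlapped. The log2 change was -0.17 against input (SE 0.10, adjusted p = 0.156) and -0.07 against the negative fraction (SE 0.10, adjusted p = 0.642), neither of which passed the test, and a p above the threshold does not show equal levels. Summed neuron markers lay between 5455 and 8415 CPM in the same positive libraries and between 7543 and 7897 in input. Of the 6 positive libraries the 3 with more Mef2c (mice 209, 277 and 210, at 306 to 328 CPM) had more neuron markers (7563 to 8415 CPM). The 3 with less (155, 194 and 192, at 222 to 270) had fewer (5455 to 6413). This split was not set beforehand, and the full orders differed: Mef2c was lowest in mouse 155 and the neuron markers in mouse 194. The part of neuronal RNA in the Mef2c level was not tested.

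Per kilobase of exon, the scale on which genes can be compared, the order of the factors changed between input and positive fraction. In input Mef2c led with 20.1 ± 1.27 CPM per kb (SD, n = 6), followed by Sall1 with 7.96 ± 0.695 and Cebpa with 5.57 ± 0.469. Sfpi1 followed with 1.49 ± 0.193, Irf5 with 1.37 ± 0.237 and Tal1 with 1.24 ± 0.187, 3 values that differed by less than the sum of their SDs. In the positive fraction Cebpa had 31.8 ± 8.70, Sfpi1 22.7 ± 8.55, Mef2c 17.7 ± 2.96, Sall1 16.4 ± 4.42 and Irf5 13.3 ± 4.54. Neighbours in that order differed by less than the sum of their SDs. Irf8 and Ikzf1 followed at 6.997 and 6.99, Tal1 at 2.18 and Runx1 at 0.697 CPM per kb. The levels are of RNA on ribosomes, and no protein was measured.

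Within each mouse the order of the factors by their ratio of positive fraction to input was stable at its ends. Sfpi1 had the highest of the 9 ratios and Mef2c the lowest in all 6 mice. The log2 ratio (CPM plus 0.5) averaged 3.71 for Sfpi1 (3.38 to 4.65), 3.14 for Irf8, 3.08 for Irf5, 2.99 for Ikzf1, 2.44 for Cebpa, 2.09 for Runx1, 1.01 for Sall1, 0.75 for Tal1 and -0.20 for Mef2c (-0.54 to -0.02). Irf8, Irf5 and Ikzf1 traded places among positions 2 to 5, Cebpa and Runx1 among 4 to 6, and Sall1 and Tal1 between 7 and 8. Thus by position 3 tiers appeared in every mouse: 6 factors held positions 1 to 6, Sall1 and Tal1 came next, and Mef2c was last with a log2 ratio below 0. The tiers were not set apart by gaps in every mouse. In mouse 210 Runx1 (1.21) lay nearer to Sall1 (0.78) than to Cebpa (2.20), and in mouse 194 likewise (2.22, 1.72 and 3.12).

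**Figure D2:**
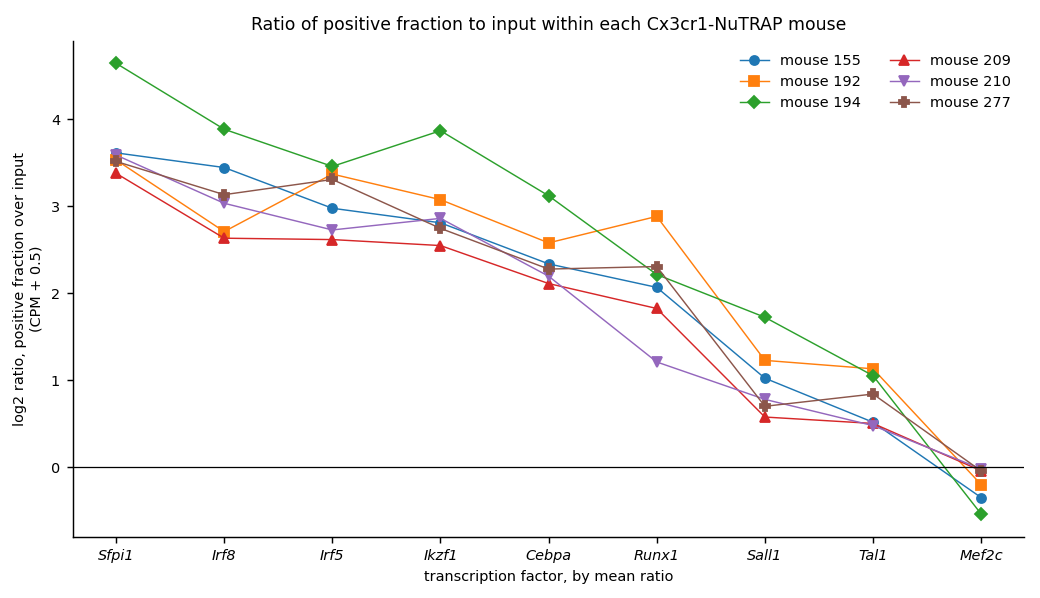
Log2 ratio of positive fraction to input (CPM plus 0.5) for each factor in each of the 6 Cx3cr1-NuTRAP mice, 1 point a mouse, with lines joining the points of a mouse. Sfpi1 is highest and Mef2c lowest in every mouse, and mouse 194 gives the highest Sfpi1 ratio, 4.65.

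Mouse 194 stood apart in the positive fraction, with the highest summed microglia markers (9513 CPM) and the fewest neuron, astrocyte and oligodendrocyte markers. To separate the level of a factor from how microglial a library was, each factor was also expressed as a percent of the summed microglia markers of the same library. In the Cx3cr1-NuTRAP positive fraction Sfpi1 was 1.04% ± 0.0561 of the marker sum (SD, n = 6). Its coefficient of variation over the 6 mice was 5.38% on this scale and 37.7% as CPM. It likewise fell from 27.3% to 6.28% for Cebpa, from 34.1% to 8.75% for Irf5, from 27.9% to 8.86% for Ikzf1, from 26.9% to 8.92% for Sall1 and from 26.6% to 12.7% for Irf8. For Mef2c it went the other way, from 16.7% as CPM to 39.9% of the marker sum, and for Tal1 it was 16.5% and 18.1%. For Runx1 it was 29.05% and 17.4%. For Sfpi1, Cebpa, Irf5, Ikzf1, Sall1 and Irf8 much of the CPM spread came with mouse 194. Without it, a comparison added after the values were seen, the coefficient of variation was 14.0% as CPM and 4.72% of the marker sum for Sfpi1, 17.8% and 3.53% for Cebpa, 20.4% and 9.73% for Irf5 and 10.9% and 8.59% for Sall1. For Ikzf1 (8.87% and 9.08%) and Irf8 (13.2% and 12.8%) the scales then differed little. Without mouse 194 the values were 30.1% and 14.6% for Runx1, 15.1% and 29.6% for Mef2c and 11.5% and 13.9% for Tal1.

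The same percent was compared between groups. For Sfpi1 it was 0.74 to 0.87 times its positive-fraction value in the other 5 groups, for Irf8 1.03 to 1.51 times, for Irf5 1.04 to 1.33 and for Ikzf1 1.08 to 1.36. Relative to the microglia markers the group means of these 4 factors thus stayed within 0.74 to 1.51 times their pulldown value, while their CPM differed many-fold. Leaving out 1 mouse widened this range. In the astrocyte pulldown Irf8 was then at most 1.77 times and Ikzf1 0.82 to 1.54 times, and in whole tissue Sfpi1 was 0.62 times without mouse 210. The astrocyte pulldown values of these 4 factors rest on 5 to 32.4 counts a library. Runx1 was 1.82 to 2.38 times higher outside it, apart from the astrocyte pulldown with 5.74 times (3.51 without mouse 294, from 5 to 28.5 counts a library). Cebpa was 1.91 to 2.12 times higher, apart from 31.5 times in the astrocyte pulldown. Sall1 was 4.08 to 5.62 times higher, again apart from the astrocyte pulldown with 26.95 times. Tal1 was 5.81 to 15.4 times (in the astrocyte pulldown 12.4, and 6.98 without mouse 293) and Mef2c 7.82 to 13.9 times higher. All of these are ratios of means with no test.

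**Figure D3:**
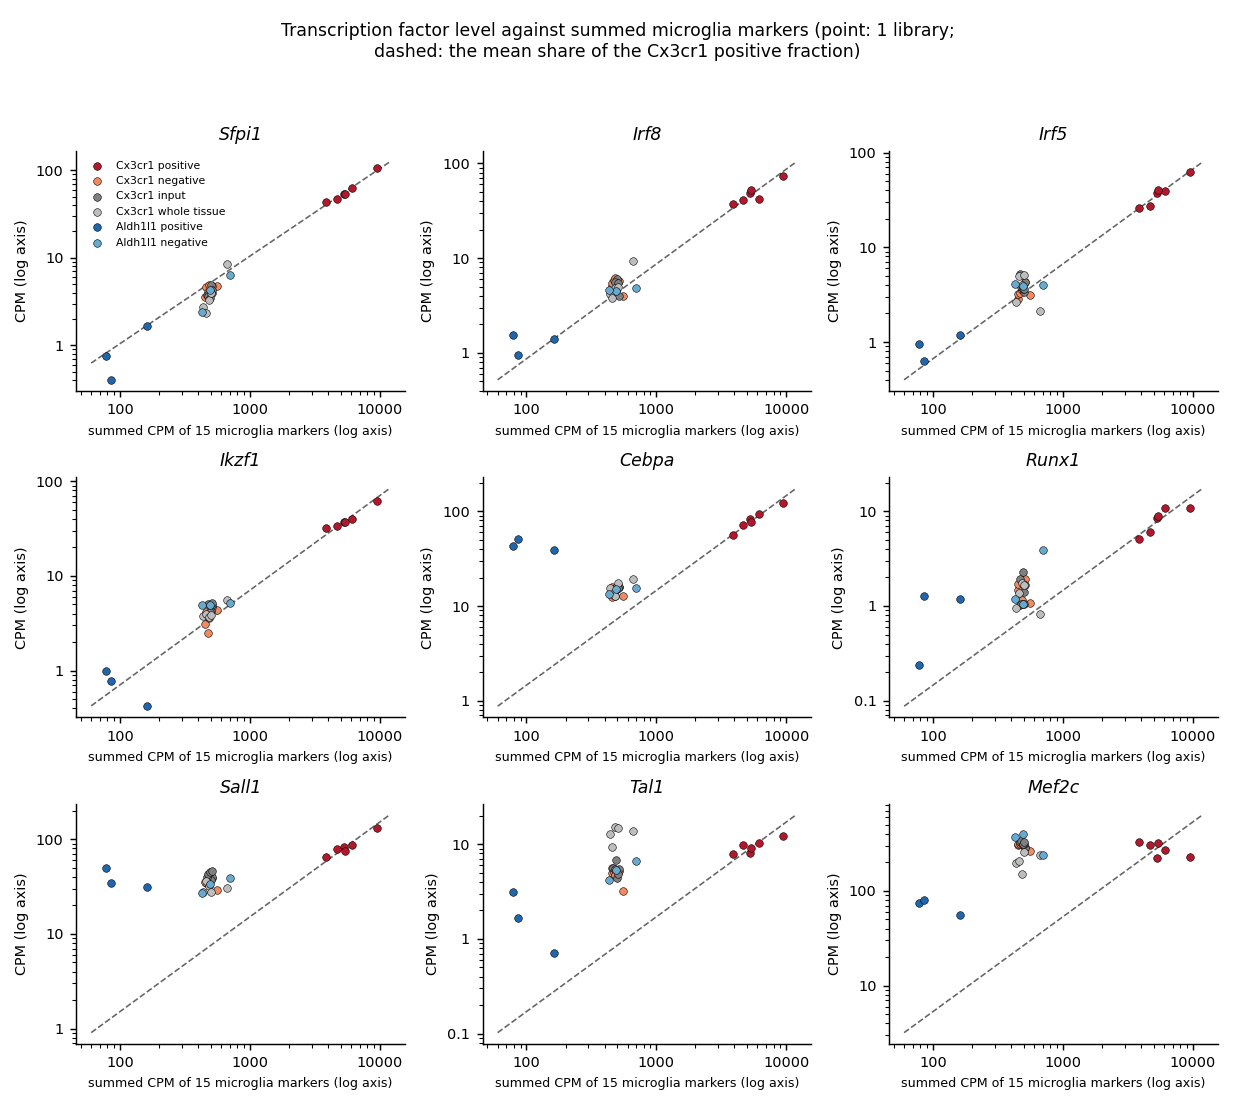
CPM of each factor against the summed CPM of 15 microglia markers in the same library, both on log axes, 1 point for each of the 29 libraries, coloured by group, with a dashed line at the mean share of the Cx3cr1-NuTRAP positive fraction. Sfpi1, Irf8, Ikzf1 and Irf5 rise along with the markers, while Mef2c does not, and Cebpa and Sall1 sit high in the Aldh1l1-NuTRAP positive libraries, where the markers sum to 78.6 to 163 CPM.

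In the astrocyte pulldown the factors divided differently. Comparing the Aldh1l1-NuTRAP positive with the negative fraction, 1 factor rose and 5 fell, where 26.8% of all 13319 genes tested were higher and 24.8% lower. The split over all genes was 3569 higher and 3299 lower with TMM scaling. With scaling by library totals alone it was 2438 and 4812, and the median of all genes moved from 0.037 to -0.309 (log2). The factor that rose was Cebpa, with 39.1, 43.0 and 50.9 CPM in the positive and 15.4, 14.997 and 13.5 in the negative fraction (mice 290, 293 and 294). It was 3.86-fold higher (log2 1.95, SE 0.17, adjusted p = 0.000127) without overlap. Astrocyte markers summed to 15727 CPM or more in those positive libraries, and microglia markers to 163 CPM or less. In these astrocyte pulldown libraries the microglia markers were thus low while Cebpa was above its level in the negative fraction. The cells that gave this Cebpa RNA were not tested.

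Ikzf1 fell by 2.39 on the log2 scale (SE 0.34, adjusted p = 0.00107), from 5.24, 4.91 and 4.90 CPM in the negative to 0.420, 1.00 and 0.774 in the positive fraction. Mef2c fell by 1.90 (SE 0.23, adjusted p = 0.00049), from 239, 394 and 365 to 56.0, 74.7 and 79.2 CPM. In both the groups were apart. Neuron markers fell too, 8 of 8, from a summed 7138 to 8340 CPM to 1616 to 2165, and the part of neuronal RNA in the Mef2c change was not tested. Sfpi1 fell by 1.90 (SE 0.60, adjusted p = 0.031), Irf5 by 1.80 (SE 0.33, adjusted p = 0.00325) and Irf8 by 1.52 (SE 0.30, adjusted p = 0.00426). All of the factors that fell except Mef2c passed the count filter only through the negative fraction, where they were higher. With only 3 mice a group the calls were sensitive to single mice: Sfpi1 missed the threshold without mouse 293 (adjusted p = 0.169) or 294 (0.065), and without mouse 294 Irf5 (0.0599) and Irf8 (0.0707) did too.

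For 3 factors the astrocyte comparison did not pass. Runx1 changed by -0.75 (SE 0.75, adjusted p = 0.43), with 1.18, 0.238 and 1.28 CPM in the positive and 3.87, 1.05 and 1.19 in the negative fraction, and the groups overlapped. Tal1 changed by -1.18 (SE 0.49, adjusted p = 0.0806), with 0.714, 3.14 and 1.67 against 6.60, 5.37 and 4.23 CPM and no overlap, and it passed with mouse as a block (log2 -1.21, adjusted p = 0.0198) and with DESeq2 (adjusted p = 0.0302). Sall1 changed by 0.56 (SE 0.23, adjusted p = 0.077), with 31.7, 49.3 and 34.6 against 39.0, 33.8 and 26.9 CPM. For Sall1 the groups overlapped as CPM over library totals, and on that scale mouse 290 alone had less in the positive than in the negative fraction (log2 ratio -0.30). On library totals the median of all genes was itself -0.309, against 0.037 with TMM. With mouse as a block Sall1 passed (log2 0.57, adjusted p = 0.00823), as it did without mouse 290 (0.78, adjusted p = 0.0081). Those fits called 70.8% and 68.9% of all genes.

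**Figure D4:**
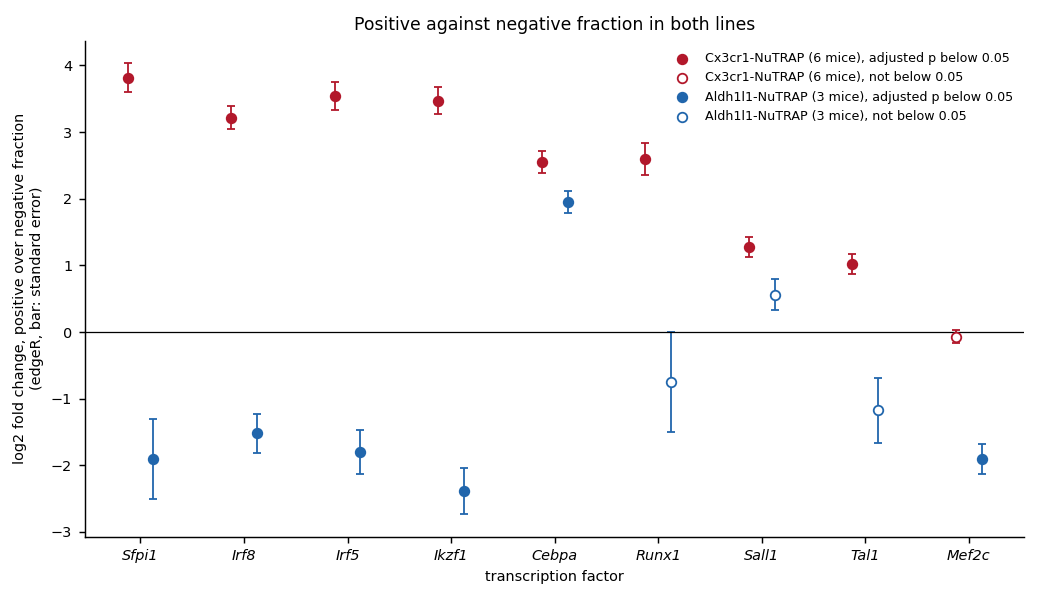
Log2 change of positive over negative fraction for each factor in the Cx3cr1 line (6 mice) and in the Aldh1l1 line (3 mice), as points with SE bars from the edgeR fits, open where the adjusted p was not below 0.05. Cebpa is above 0 in both lines, Mef2c lies at -0.07 in the Cx3cr1 line and -1.90 in the Aldh1l1 line, and Sfpi1, Irf8, Ikzf1 and Irf5 lie above 3 in one and below -1 in the other.

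The lines were compared directly. All 9 factors were higher in the Cx3cr1-NuTRAP than in the Aldh1l1-NuTRAP positive fraction, where 33.1% of 13676 genes were higher. Over all genes the split was 4530 higher and 4188 lower, and 6304 and 2880 with scaling by library totals, under which the median moved from 0.077 to 0.386. The difference was 57.0-fold for Sfpi1 (log2 5.83, SE 0.50, adjusted p = 2.39e-06), 42.7-fold for Ikzf1, 35.1-fold for Irf5 and 31.6-fold for Irf8. It was 7.62-fold for Runx1, 4.08-fold for Tal1 and 3.20-fold for Mef2c (log2 1.68). Neuron markers were also higher, 8 of 8 with a median log2 of 1.47, as were 7 of 7 oligodendrocyte markers (1.46), and their part in the Mef2c difference was not tested. Sall1 was 1.82-fold higher (log2 0.86, SE 0.24, adjusted p = 0.00869) and Cebpa 1.53-fold (log2 0.62, SE 0.23, adjusted p = 0.0349). The Cebpa call did not survive leaving out mouse 155, 192, 210, 290 or 293, each of which gave an adjusted p between 0.0539 and 0.104. In this comparison Sfpi1, Irf8, Runx1, Ikzf1, Irf5 and Tal1 passed the count filter only through the Cx3cr1-NuTRAP fraction, and the largest folds rest on few counts in the astrocyte libraries: 9 to 20 for Sfpi1, 5 to 21 for Ikzf1 and 13.9 to 20 for Irf5. Sfpi1 was at 0.403 to 1.68 CPM there, and mouse 290 was the highest there in both Sfpi1 and summed microglia markers (163 CPM).

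The negative fractions of the lines served as a reference. None of the 9 factors differed between them by edgeR (adjusted p = 0.365 or more) or by DESeq2, and 1 factor, Ikzf1 (log2 -0.46), had an unadjusted p below 0.05 (0.0472). Over all genes 0.25% were called. The log2 differences ran from that of Ikzf1 to 0.19 for Irf8. An interaction term then set the bound-to-unbound ratio of the lines against each other. All 9 factors had the higher ratio in the Cx3cr1 line, where 29.9% of 13983 genes did (4179 higher and 3572 lower, or 5712 and 2604 with scaling by library totals and a median of 0.384 in place of 0.110). The log2 difference was 5.88 for Ikzf1, 5.79 for Sfpi1, 5.40 for Irf5, 4.79 for Irf8 and 3.37 for Runx1. Tal1 (2.22) and Mef2c (1.87) followed, and Mef2c differed between the lines while its own change in the Cx3cr1 line did not pass. All 8 neuron markers (median 1.54) and 7 of 7 oligodendrocyte markers (2.03) had the higher ratio in the Cx3cr1 line as well, and their part in the Mef2c value was not tested. The difference was 0.76 for Sall1 (SE 0.29, adjusted p = 0.0307) and 0.65 for Cebpa (SE 0.26, adjusted p = 0.0449). These 2 calls were fragile: Cebpa kept its call in 5 of 16 alternatives (adjusted p = 0.0583 with mouse as a block) and Sall1 in 10 of 16.

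Whether the pulldown left less of the factors behind was asked by comparing the negative fraction with input. None of the 9 was called, by edgeR or DESeq2, where 6.11% of 13748 genes were called, and 1 factor, Sall1, had an unadjusted p below 0.05. Its log2 change was -0.19 (SE 0.08, adjusted p = 0.123), with 28.8 to 42.4 CPM in the negative fraction and 36.9 to 46.3 in input. It was lower in the negative fraction in 6 of 6 mice, and with mouse as a block it was called (log2 -0.20, adjusted p = 0.00963), in a fit that called 37.2% of all genes. The count over all genes rested on single mice, falling from 840 to 0 without mouse 192, 209, 210 or 277 and to 3 without 194, and rising to 3815 without 155. Mef2c, not called, was likewise lower in 6 of 6 mice, by a within-mouse log2 ratio of -0.09 ± 0.036 (SD). The other values ran from -0.29 for Ikzf1 to 0.15 for Sfpi1. The summed microglia markers were 455 to 556 CPM in the negative fraction and 465 to 515 in input. Within mice, Runx1, Ikzf1, Irf5 and Tal1 were each higher in the negative fraction than in input in only 1 of 6. Sfpi1 and Cebpa were higher in 4 of 6 and Irf8 in 5 of 6. The unbound RNA thus carried close to the input level of Sfpi1 and of the microglia markers. For the factors not called, a p above the threshold does not show that nothing was removed.

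Whole tissue was set beside input. The titles of the tissue samples call them slices and their RNA was isolated conventionally, whereas input was cleared homogenate of a hemisected brain, so the piece of brain, the isolation and the clearing cannot be told apart in this comparison. Of the 9 factors 2 were higher in input and 1 lower, where 15.7% of 13608 genes were higher and 14.6% lower. Tal1 was lower in input, at 4.40 to 6.84 CPM against 12.8, 9.41, 15.3, 13.7 and 14.96 in whole tissue (mice 192, 194, 209, 210 and 277). The groups were far apart, with a log2 change of -1.29 (SE 0.14, adjusted p = 5.98e-05). Gata2, which encodes the GATA factor that joins TAL1 in endothelial and early blood cells, changed alike: log2 -1.26 (SE 0.19, adjusted p = 0.000279), from 9.79 ± 2.97 CPM in tissue (SD, n = 5) to 4.27 ± 0.746 in input (n = 6). Of 6 tested genes in the list of the TAL1 complex and its relatives it was the only one called. Endothelial markers moved with them, 8 of 8 lower in input with a median log2 of -1.34 and sums of 108 to 128 CPM against 176 to 331. Pericyte and smooth muscle markers were also lower, 4 of 5 tested, whereas 0 of 4 erythroid markers were called and 0 of 15 microglia markers. In whole tissue of mouse 210 the endothelial sum was the lowest, 176 CPM, while Tal1 was 13.7. The mice were killed by cervical dislocation or after perfusion, and which mouse had which is not given in the sources used here. The part of endothelial RNA in the Tal1 difference was not tested.

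The other calls in input against whole tissue were Mef2c (log2 0.59, SE 0.11, adjusted p = 0.00138) and Sall1 (log2 0.43, SE 0.09, adjusted p = 0.00222). Mef2c was at 283 to 338 CPM in input and at 197, 207, 149, 238 and 257 in tissue, and Sall1 at 36.9 to 46.3 against 27.9, 36.1, 31.8, 30.5 and 27.7. Neither range overlapped. The Sall1 call was lost when all 6 groups shared a fit (adjusted p = 0.0538). Of 8 neuron markers 4 were higher and 1 lower in input, and 6 of 7 oligodendrocyte markers were lower. Their part in these differences was not tested. The 6 remaining factors were not called, with values from -0.08 for Cebpa to 0.16 for Ikzf1.

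Against whole tissue, the comparison with conventionally isolated RNA, the positive fraction was higher for 8 factors and lower for 1, where 27.5% of 13470 genes were higher and 24.3% lower. Sfpi1 was 17.3-fold higher, Ikzf1 10.2-fold, Irf8 10.1-fold and Irf5 10.0-fold. Runx1 and Irf5 passed the filter only through the positive fraction. Sall1 rose by 1.52 on the log2 scale (SE 0.17, adjusted p = 1.71e-05). The direction of Tal1 depended on the reference. It was lower than in whole tissue (log2 -0.45, SE 0.16, adjusted p = 0.0289), with overlapping ranges of 7.92 to 12.1 and 9.41 to 15.3 CPM, although it was higher than in input. With mouse as a block the Tal1 call was lost (adjusted p = 0.137), as it was with all 6 groups in a fit (0.0506) and without mouse 192 (0.0589), 209 (0.102) or 277 (0.119). Mef2c was higher than in whole tissue (log2 0.43, SE 0.14, adjusted p = 0.0194) but not than in input, and this call was lost without mouse 192 (0.0813) or 209 (0.107). Here 3 of 8 neuron markers were higher and 0 lower, and 7 of 7 oligodendrocyte markers were lower, and their part in the Mef2c call was not tested. Of 8 endothelial markers 6 were below their whole-tissue level, and their part in the Tal1 difference was not tested.

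The other members of the factors' families moved in both directions. Over all genes 23.3% were higher and 25.6% lower in the Cx3cr1-NuTRAP positive fraction against input. In that comparison 3 of 5 tested IRF genes rose: Irf1 (log2 1.11), Irf3 (0.88) and Irf9 (0.83), which act in interferon responses. Irf7 (0.34) and Irf2 (0.25) did not pass. All 4 tested C/EBP relatives rose, Cebpd by 1.17, Cebpb by 1.12, Cebpg by 0.49 and Ddit3 by 0.32. Both tested MEF2 relatives fell, Mef2a by 0.74 and Mef2d by 0.72. Their difference from Mef2c was not tested. In the SALL family Sall3 rose by 0.76 and Sall2 fell by 0.33. Neither Runx2 (-0.11) nor Cbfb (0.12), the partner shared by all RUNX proteins, passed. Of the Ikaros family Ikzf4 (-0.60) and Ikzf5 (-0.45) fell and Ikzf2 (-0.22) did not pass. Spib and Spic, the closest relatives of PU.1, were under the count filter, as were Irf4, Runx3, Mef2b, Sall4, Cebpe, Ikzf3, Tal2 and Gata1.

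The TAL1 group was mixed. Lyl1, a close paralog of TAL1 in hematopoietic cells, rose by 3.91 on the log2 scale (SE 0.25, adjusted p = 4.36e-08), from 1.48 ± 0.486 CPM in input to 21.7 ± 7.29 in the positive fraction (SD, n = 6). That change was close to that of Sfpi1 and far above that of Tal1 itself. Lmo2, the bridge of the complex, rose by 1.57, Tcf3 by 0.46 and Ldb1 by 0.29, while Tcf12 fell by 0.52 and Gata2 (0.36) did not pass. In the astrocyte pulldown, where 26.8% of all genes were higher and 24.8% lower, both tested SALL relatives rose against the negative fraction, Sall3 by 1.99 and Sall2 by 1.81. Of 4 tested C/EBP relatives 3 rose, Cebpd by 1.93, Ddit3 by 0.99 and Cebpg by 0.75. Irf3 (0.98) was the 1 of 4 tested IRF genes that rose, and Cbfb rose by 1.26. Of the Ikaros family Ikzf4 fell by 1.48 and Ikzf5 rose by 0.70, and Mef2a fell by 1.27. In the TAL1 group Tcf3 (1.23), Tcf12 (1.22) and Ldb1 (0.44) rose and Lmo2 fell by 1.14. Between positive fractions Cebpd (-1.50), Sall2 (-1.90) and Sall3 (-1.08) were lower in the Cx3cr1 line, opposite to Cebpa and Sall1.

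**Figure D5:**
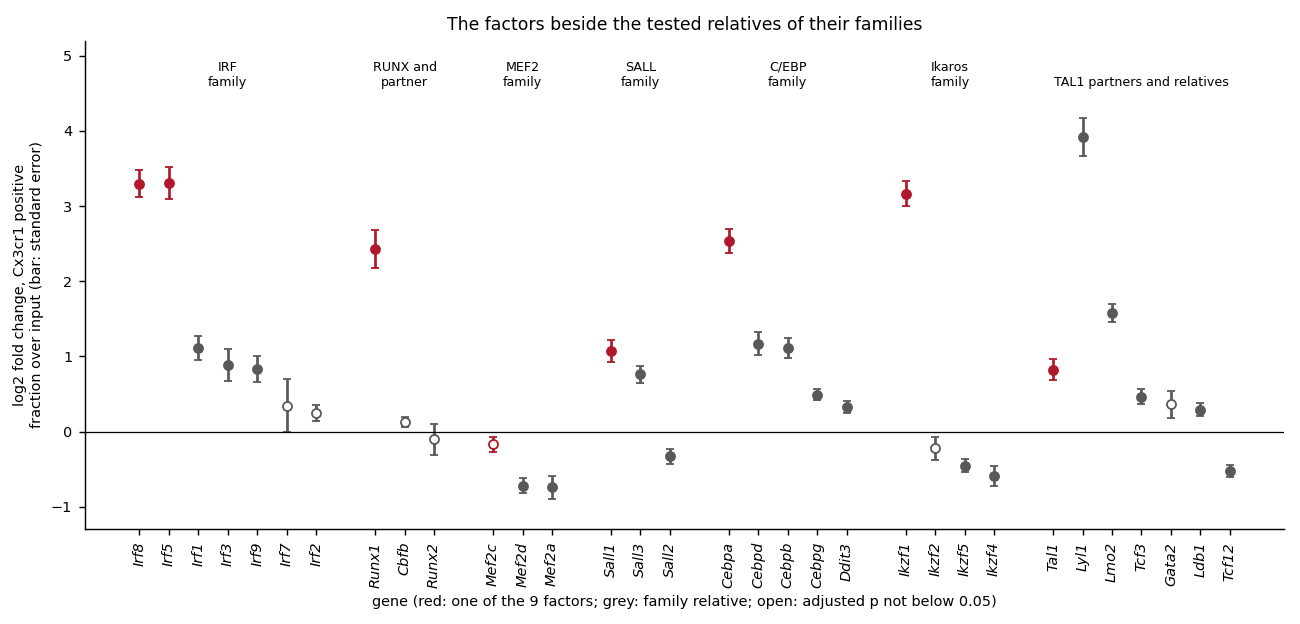
Log2 change of positive fraction against input in the Cx3cr1 line for 8 of the factors (red) and the tested members of their families (grey), with SE bars, filled where the adjusted p was below 0.05. Sfpi1 has no tested relative and is left out. Lyl1 (3.91) lies far above Tal1 (0.82), and Mef2a and Mef2d lie below Mef2c.

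Receptors and ligands that act upstream of these factors rose in part, 4 of 6, with 1 lower. Csf1r, the receptor microglia need to survive, rose by 3.45, Tgfb1, the ligand that sustains Sall1, by 2.85 and its receptor gene Tgfbr1 by 2.38, while Csf1, the ligand of Csf1r, fell by 0.47. The median of the 6 was 2.01, against -0.003 for all genes. Of 20 textbook PU.1 targets 20 rose, with a median of 3.49. Of these, 17 passed the count filter in input and 3 only in the positive fraction where they were high. Aif1 (4.01), Tyrobp (3.92) and Fcer1g (3.84), which serve in phagocyte shape and receptor signalling, had the largest rises of the list. Aif1, Tyrobp and Csf1r are also in the list of microglia markers, so that list is not separate evidence. In the astrocyte pulldown 14 of 16 tested PU.1 targets fell and 1 rose (24.8% and 26.8% over all genes), with a median of -2.24, where 6 of the list passed the filter in the positive fraction itself. Of 20 other tested regulators, 19 of which passed the count filter in input too, 12 rose and 2 fell in the Cx3cr1-NuTRAP positive fraction (23.3% and 25.6% over all genes), led by Hhex (3.14), Elf4 (2.39) and Fli1 (2.05), with Bhlhe40 (-0.55) and Zeb2 (-0.35) lower.

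Across the 29 libraries, genes among the 3 most like each factor in log2 CPM were listed as a description over 14109 genes, since the libraries share their pulldowns and microglial content. Sfpi1 was most like Hcls1 (Pearson r = 0.990) and Olfml3 (0.989). Irf8 was most like Laptm5, Fcer1g (both 0.989) and Fcgr3 (0.988), Ikzf1 like Slc2a5 and Myo1f (both 0.984), and Irf5 most like Cyth4 (0.986), Tifab (0.985) and Laptm5 (0.983). Cebpa was most like Cmtm6 (0.985), Itgb5 (0.975) and B2m (0.97), and Sall1 like Grn (0.930) and Ptgs1 (0.921). For Mef2c the nearest were Prkcb (0.985), Cpne5 (0.982) and Fbxl16 (0.980), and for Runx1 Fgd2 (0.939), Tnfaip8l2 (0.936) and Snx20 (0.933). Tal1 was nearest to Ebf3 (0.924), Zfp92 (0.913) and Acvrl1 (0.909), the last of which encodes an endothelial receptor of the TGF-beta family. Among the members, Sfpi1 and Irf8 were the closest pair (0.986), followed by Irf8 with Ikzf1 (0.976). Mef2c with Cebpa (-0.287) was the most distant.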

How the data were processed

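TRAP-RNAseq was done on 29 libraries from 9 mice: polyA-selected, strand-specific, paired-end. Per the study's methods, reads were aligned to mm10 in Strand NGS 3.1, and the file header names RefSeq as the gene model. The raw columns deposited by the authors were taken to be expected counts per gene, since 82.8% of values above 0 were not whole within 1e-09, and were rounded before testing. How they arose is not given in the sources used here. The authors also deposited log2 values after DESeq normalization, which were not used. No table column lacked a sample, and no pair of libraries was identical.

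Levels are CPM over the library total. Tests used edgeR 4.0.16 (R 4.3.3) quasi-likelihood fits with TMM, two-sided, on genes that passed 20 counts throughout all libraries of 1 or more of the compared groups, with Benjamini-Hochberg adjustment over all genes tested and a threshold of 0.05. Scripts were tested on simulated data. Alternatives were DESeq2 1.42.0, other scalings and filters, all 6 groups in a fit, mouse as a block and leaving out each mouse. The main fits held no term for mouse, so fractions of the same mouse entered them as separate samples. Depth per library is given in the text and limits low counts, and p-values of the main fits refer to the spread between mice within groups.

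The members and gene lists were chosen with earlier results of these data known. Named genes were the members, the 3 largest rises and 2 largest falls of each list among the called genes of positive fraction against input, direct paralogs, and the 3 most similar genes of each member. A few genes that this rule names are not reported here. Gata2 in whole tissue was singled out after its values were seen.

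Fractions with the same number came from the same mouse. Deviations from the group means correlated above 0.1 in 3 of 3 Aldh1l1-NuTRAP pairs, and for 5 of 6 Cx3cr1-NuTRAP mice when unbound RNA was paired with input. The bound RNA did so for 3 of 6 mice with each of these, and no tissue library did (0 of 5).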

Additional observations from a re-analysis of the deposited data

Results flagged for a closer look

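In 67 sets of 4 to 10 samples, 9 had a highest or lowest value set apart from the rest by Dixon's test, where chance would give about 1 in 20. Mouse 194 was the high sample in the Cx3cr1-NuTRAP positive fraction for Sfpi1 (106.2 CPM, next highest 62.29), Sall1 (131.5, next 87.06) and Ikzf1 (62.61, next 39.75). It was also the high one in the log2 ratio of positive fraction to input for Sfpi1 (4.647, next 3.616) and to negative fraction (4.706, next 3.621). Its summed microglia markers were the highest of the 6 mice as well (9513 CPM). Mouse 210 was the high sample in whole tissue for Sfpi1 (8.449 CPM, next 4.001), Irf8 (9.342, next 4.932) and Ikzf1 (5.633, next 3.956), in the shallowest library, with 4260949 counts. In that same library Irf5 (2.11 CPM, 9 counts) and Runx1 (0.821 CPM, 3.5 counts) were the lowest of the whole-tissue group, though not flagged. Mouse 155 was the low sample in the log2 ratio of negative fraction to input for Sall1 (-0.4782, next -0.2254). All 9 flagged values are single samples, and the cause was not tested.

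The ratio of positive to negative fraction differed between the Cx3cr1 and Aldh1l1 lines for all 9 factors by an interaction term in edgeR. The log2 difference was 5.7928 for Sfpi1, 4.7894 for Irf8, 3.365 for Runx1, 1.8727 for Mef2c, 0.7605 for Sall1, 0.6489 for Cebpa, 5.8814 for Ikzf1, 5.4042 for Irf5 and 2.2176 for Tal1. The values for Sall1 and Cebpa are those that lost their calls under several alternatives.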

How the results depend on the processing

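Among the fold changes the report prints, none reversed its sign over 842 alternative values, which leave out uncalled factors near 0 that were not printed one by one. Of these, 800 kept their side of the threshold, 34 lost it and 8 gained it. Mouse as a replicate block (same-mouse pairing) changed these counts: factors lower than in whole tissue went from 1 to 0, factors lower in the Cx3cr1-NuTRAP negative fraction than in input from 0 to 1 among 5115 genes called (840 without the block), and factors higher in the Aldh1l1-NuTRAP positive fraction from 1 to 2 among 9430 genes called (6868 without). The block changed no other count of factors by more than 1.5 times, but the Cebpa interaction call was lost. With all 6 groups in a fit, negative fraction against input gave 60 genes, input against whole tissue 2481 genes (4123 before) with 1 factor higher in place of 2, positive fraction against whole tissue 0 factors lower, and the Aldh1l1 positive fraction 2 factors higher. DESeq2 gave 2056 genes for negative fraction against input and 517 (34 before) between the negative fractions of the lines, and without a filter these were 281 and 14. With at least 100 counts only 3 factors were tested in 4 comparisons, leaving 0 lower in input against whole tissue and 1 lower in the Aldh1l1 line. Leaving out 1 mouse at a time gave 5428 to 6895 genes for positive fraction against input, 1747 to 4273 against negative (3352 with all, and the lowest without mouse 192), 5018 to 7649 against whole tissue with 7 to 8 factors higher and 0 to 1 lower, 0 to 3815 for negative against input (3815 without 155), 2574 to 5395 for input against whole tissue, 3587 to 9731 for the Aldh1l1 fractions (6868 with all) with 1 to 2 factors higher and 2 to 5 lower (3662 without 293, 3587 without 294), 7822 to 8633 between positive fractions with 8 to 9 factors higher, 0 to 133 between negative fractions (133 without 290) and 6673 to 7876 for the interaction with 7 to 9 factors higher. Of 54 mean levels 49 moved by less than 1 SD under TMM and 5 by more, all in the Aldh1l1-NuTRAP positive fraction: Irf8 1.70, Mef2c 91.5, Sall1 50.4, Cebpa 58.1 and Irf5 1.21 CPM. Scaling by library totals lowered the median of all genes there. Depth limits Sfpi1, Irf8, Runx1, Ikzf1, Irf5 and Tal1 in the astrocyte positive libraries.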
